A study of Mus musculus with 6 samples.

Results

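Exocrine gland-secreted peptide (Esp) genes encode small secreted peptides that mice release in tears and saliva and that other mice sense with the vomeronasal organ. Messenger RNA of 10 of them (Esp1, Esp3, Esp4, Esp6, Esp8, Esp15, Esp16, Esp18, Esp34 and Esp38) was read here in lacrimal glands with and without ectodysplasin A, a TNF-related signal that skin appendages and glands need to form. The 10 were taken by name out of 50686 gene identifiers in the deposited table, and out of 15 genes with an Esp symbol in GENCODE M21. They were selected on values from these same libraries, namely their counts and their difference between the genotypes; levels and fold changes are therefore descriptions and are not tested.

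RNA came from lacrimal glands of 3 wild-type mice (titled Blacky) and 3 mice of genotype Eda-/- (titled Tabby), all 13 weeks old and labelled C57BL/6, and the design text calls the 3 in each condition biological replicates. The labels give neither the lobe of the gland nor the breeding of the Tabby line, and name no treatment of either group. RNA was depleted of ribosomal RNA and made into directional libraries, which held 11894395 to 15700899 counts, with 24637 to 26240 genes detected in wild-type and 21897 to 22416 in Eda-/-. Counts of Eda itself were 41, 48 and 42 in wild-type against 2, 0 and 0 in the mutants. Uty, Kdm5d, Ddx3y and Eif2s3y, all Y-linked, each reached at least 194 counts in every library, and Xist at most 3. The acinar markers Aqp5, Ltf and Bhlha15 were present in every library, at 98.6, 704 and 339.8 counts scaled to library size (CPM) on average in wild-type; of the same list Prol1 had at most 7 counts in any library, and Lacrt is not analysed here. Of 12 salivary gland genes looked up, Egf (1401 to 2011 counts), Prlr (at least 170) and Amy1 (7 to 13) were found in every library, Smr3a, Klk1b22 and Dcpp3 were at 0, and the other 6 had at most 4 counts in any library.

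ESP peptides act as chemical signals. ESP1, shed in the tears of males, is detected by the vomeronasal receptor Vmn2r116 and promotes sexual receptivity in females, and its production depends on androgen and differs between mouse strains. ESP22 is a signal of juvenile mice. The functions of most other family members are less well described, and the genes form a cluster on chromosome 17 that arose by repeated duplication.

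In GRCm38 the 15 annotated genes span chromosome 17 from 38416474 to 40731782, a stretch of 2.32 Mb, and only Esp36 and Esp23 are on the minus strand. From the lower to the higher coordinate the order is Esp36, Esp34, Esp31, Esp24, Esp23, Esp22, Esp18, Esp16, Esp15, Esp38, Esp8, Esp6, Esp4, Esp3 and Esp1. Esp22 is not analysed here, and 14 genes had a row in the table. Their coding sequences run from 68 codons (Esp24) to 160 codons (Esp36), and each of the 10 listed genes has 3 exons. Esp15 and Esp16 are the closest pair, with 95.7% identical bases in the coding sequence, and both are 73.6% to 75.1% identical to Esp18. Esp38 comes nearest to that trio (63.7% to 66.6%). Esp1 and Esp6 share 57.5%, and Esp1 and Esp3 53.8%.

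Promoters are printed for a trio with alike sequences (Esp3, which fell, Esp1, which was lower without passing, and Esp6, whose small rise depended on the processing), for the most alike pair (Esp15 and Esp16) and for a gene that rose (Esp38). Each is the 250 bases before the start in RefSeq, on the plus strand of chromosome 17, in GRCm38.p6; for Esp15 that start lies slightly inside the GENCODE gene, so the last bases printed overlap it. Capitals mark the word AGTAGATT and AGAACA, a short androgen response site, on either strand (AATCTACT and TGTTCT on the other).
Esp1 (chr17:40726870-40727119): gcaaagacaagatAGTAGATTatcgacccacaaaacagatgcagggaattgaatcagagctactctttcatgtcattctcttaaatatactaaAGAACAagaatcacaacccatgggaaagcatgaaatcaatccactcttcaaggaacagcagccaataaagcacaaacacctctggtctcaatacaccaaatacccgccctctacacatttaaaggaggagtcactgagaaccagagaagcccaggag
Esp3 (chr17:40631825-40632074): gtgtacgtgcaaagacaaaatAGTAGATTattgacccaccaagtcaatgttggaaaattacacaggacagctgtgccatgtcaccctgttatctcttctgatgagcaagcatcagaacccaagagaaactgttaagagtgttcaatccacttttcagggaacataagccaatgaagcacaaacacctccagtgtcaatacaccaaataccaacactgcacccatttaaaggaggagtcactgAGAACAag
Esp6 (chr17:40561257-40561506): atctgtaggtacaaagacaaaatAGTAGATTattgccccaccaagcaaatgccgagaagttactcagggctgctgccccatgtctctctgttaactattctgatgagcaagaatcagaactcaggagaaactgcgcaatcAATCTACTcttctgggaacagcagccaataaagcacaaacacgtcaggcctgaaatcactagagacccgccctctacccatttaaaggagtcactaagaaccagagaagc
Esp15 (chr17:39640707-39640956): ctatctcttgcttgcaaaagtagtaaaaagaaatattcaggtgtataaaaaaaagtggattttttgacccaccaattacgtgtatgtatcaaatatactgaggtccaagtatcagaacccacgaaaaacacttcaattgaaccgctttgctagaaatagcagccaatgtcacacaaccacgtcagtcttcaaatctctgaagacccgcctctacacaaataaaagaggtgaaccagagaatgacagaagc
Esp16 (chr17:39535892-39536141): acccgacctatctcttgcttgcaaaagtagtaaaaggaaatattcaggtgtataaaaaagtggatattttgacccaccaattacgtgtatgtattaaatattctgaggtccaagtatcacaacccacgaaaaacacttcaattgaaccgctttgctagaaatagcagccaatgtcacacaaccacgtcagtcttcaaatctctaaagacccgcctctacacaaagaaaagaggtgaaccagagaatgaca
Esp38 (chr17:39950270-39950519): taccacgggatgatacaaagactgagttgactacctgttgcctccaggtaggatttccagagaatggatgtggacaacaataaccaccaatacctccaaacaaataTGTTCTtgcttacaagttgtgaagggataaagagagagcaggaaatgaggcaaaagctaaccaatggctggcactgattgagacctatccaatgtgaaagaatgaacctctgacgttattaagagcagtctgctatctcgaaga

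The promoters of Esp15 and Esp16 were 91.8% identical over these bases. Esp1, Esp3 and Esp6 also resembled each other, with 73.5% identity between Esp1 and Esp6, 74.0% between Esp3 and Esp6 and 69.2% between Esp1 and Esp3. The RefSeq table held promoters of 13 Esp genes, 8 of the 10 listed genes among them. Esp4 and Esp34 were not. Among the 13 was Esp5, a symbol that GENCODE M21 does not use. Its promoter window, 40574461 to 40574710, lies between Esp6 and Esp4 and inside Gm44501. AGTAGATT, picked after the sequences were compared, was found in 6 of the 13 (Esp36, Esp31, Esp18, Esp6, Esp3 and Esp1) and in 0.481% of all 32851 promoters searched over the same length. The site AGAACA was found in 4 of 13 (Esp38, Esp8, Esp3 and Esp1), where 16.1% of all promoters hold it. The whole androgen response element (that site, any 3 bases, then its reverse complement) was in 0 of the 13 and in 0.009% of all promoters, and the NF-kB motif was in 0 of the 13 and in 3.90% of all. TATAAA was found in Esp23, Esp16 and Esp15, and in 12.4% of all promoters. Such matches describe these windows and do not locate a binding site.

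Together the 10 genes supplied 3.24%, 3.34% and 3.38% of all counts in wild-type glands, against 2.66%, 3.12% and 2.99% in Eda-/- glands. On this scale every Eda-/- library lay below every wild-type library. With library sizes scaled by the trimmed mean of M-values (TMM), which sets most genes level, the order of the means turned: the members made up 3.02% ± 0.0601 of the scaled size in wild-type and 3.23% ± 0.339 in Eda-/- (SD, n = 3 each). The groups overlapped on that scale, with Eda-/- 1 below all wild-type libraries and Eda-/- 2 and 3 above them. Esp15, Esp16, Esp18 and Esp6 alone provided 98.91% to 99.01% of the members' counts in wild-type and 94.99% to 95.93% in Eda-/-. The other 6 genes together made up 0.0343% ± 0.00123 of all counts in wild-type and 0.135% ± 0.0246 in Eda-/- (SD, n = 3 each), while Esp1, Esp3 and Esp4 alone went from 0.0154% ± 0.000409 to 0.00145% ± 0.000617. In whole-gland RNA, fewer cells of a type and less RNA per cell cannot be told apart.

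To compare genes with each other, levels were put per length as length-scaled abundance (TPM), computed from the counts and the annotated exon lengths. Esp15 was highest in wild-type glands at 9801 ± 376 TPM (SD, n = 3), the 16th highest of all genes. Below it came Esp16 at 7182 ± 466 and Esp6 at 6275 ± 592 TPM, whose ranges overlapped, and then Esp18 at 3888 ± 241 TPM. A gap among the listed genes came next, in which the unlisted Esp31, Esp24 and Esp36 lay at 1125, 689 and 271 TPM on average. The next listed gene was Esp38, at 224.7 ± 15.3 TPM. Esp4 followed at 107.9 ± 1.69, Esp34 at 59.9 ± 4.82, Esp3 at 44.5 ± 8.82 and Esp1 at 19.0 ± 3.75 TPM, with no overlap between neighbours in this order. Esp8 was the lowest at 0.171 ± 0.136 TPM. The table carries older versions of the Esp34, Esp15, Esp38, Esp8, Esp6 and Esp1 gene models than the annotation, so levels per length are uncertain for them.

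**Figure D1:**
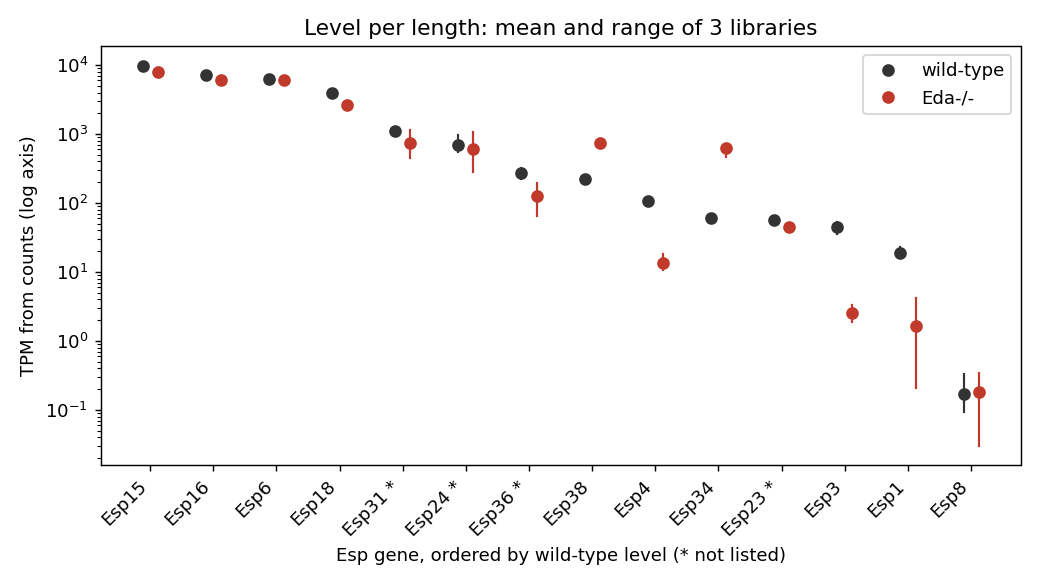
Level per length (TPM from counts, log axis) of 14 Esp genes, ordered by wild-type mean, with points for the mean and lines for the range of 3 libraries in wild-type (dark) and Eda-/- (red); the Esp8 line is drawn from 0.03 because 1 Eda-/- library held 0 counts. The first 4 genes lie between 3888 and 9801 TPM in wild-type and are also the highest in Eda-/-, while Esp38 and Esp34 are at 742 and 622 TPM in Eda-/-.

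In Eda-/- glands the same 4 genes led, with Esp15 at 7872 ± 459 TPM, Esp16 at 6085 ± 573 and Esp6 at 6022 ± 260.1, whose ranges overlapped, and Esp18 at 2654 ± 297.1 TPM. Esp38 at 742 ± 87.9 and Esp34 at 622 ± 133 TPM came next among the listed genes and overlapped each other. With the shortest annotated transcript as length, a setting chosen after seeing the data, they were at 685 ± 85.5 and 373 ± 86.2 TPM. Esp4 was at 13.6 ± 3.95, Esp3 at 2.51 ± 0.71 and Esp1 at 1.66 ± 2.23 TPM. Esp34 moved from rank 245 to rank 58 among all genes on this scale, and Esp3 from 334 to 5028. Esp4 lay above Esp34 in wild-type, and far below it in Eda-/-.

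Differences between genotypes are given from here on in TMM-scaled CPM, with log2 fold changes (Eda-/- against wild-type) and standard errors (SE) from edgeR's quasi-likelihood model fitted to all 13178 genes with enough counts. Of the 10 genes 9 had enough counts; Esp8 did not. At a Benjamini-Hochberg adjusted p under 0.05, 3 of the 9 were higher (Esp34, Esp38 and Esp6), where 6.21% of all tested genes were, and 2 were lower (Esp3 and Esp4), where 6.9% were; in either direction 13.1% of all genes passed. The 3 Eda-/- libraries lay wholly above or below the 3 wild-type libraries in 7 of the 9, against 32.1% of all tested genes. Nothing is read from these shares, nor from whether a listed gene passed under any setting, because the genes were listed with this contrast known. The median log2 fold change was 0.02 in the 9 genes and 0.00 in all tested genes.

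**Figure D2:**
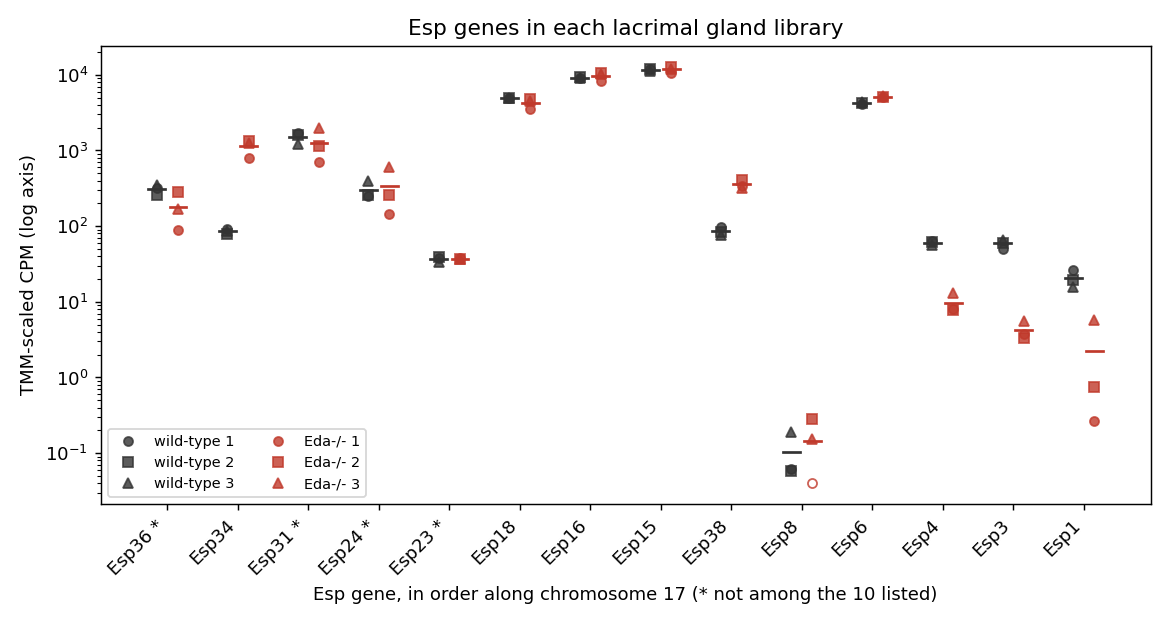
TMM-scaled CPM (log axis) of 14 Esp genes in each of 3 wild-type (dark) and 3 Eda-/- libraries (red), in order along the chromosome, with bars for group means; the open symbol marks 0 counts of Esp8. Esp34 and Esp38 are higher in all Eda-/- libraries, Esp4, Esp3 and Esp1 lower in all, and Esp18, Esp16, Esp15 and Esp6 lie close together.

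Esp34 (ENSMUSG00000092244, chromosome 17, 38554192 to 38560621, plus strand) showed the largest gain of the listed genes. It was at 92.1, 79.5 and 86.2 CPM in wild-type 1, 2 and 3 and at 805, 1323 and 1257 CPM in Eda-/- 1, 2 and 3. Every Eda-/- library was above every wild-type library, and Eda-/- 1 was the lowest of its group. The fitted difference was 13.1-fold (log2 3.72, SE 0.21). Of its 31-base words 2.7% occur in other genes, most of them in Esp31 next to it.

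Esp38 (ENSMUSG00000095886, chromosome 17, 39950520 to 39955287, plus strand) also rose. Its levels were 97.8, 84.0 and 75.9 CPM in wild-type and 341, 407 and 317 CPM in Eda-/-, again without overlap. The difference was 4.13-fold (log2 2.05, SE 0.11). Esp34 and Esp38 are not close relatives, with 39.4% identity in coding sequence, and Esp18, Esp16 and Esp15 lie between them. A gene whose coding sequence is near that of Esp38, Esp16, did not pass: it was at 8941, 9278 and 8940 CPM in wild-type and 8189, 10477 and 10374 CPM in Eda-/- (log2 0.10, SE 0.10).

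At the other end of the cluster, Esp4, Esp3 and Esp1 follow one another and all were lower in Eda-/-. Esp4 (ENSMUSG00000095540, 40598594 to 40602618, plus strand) was at 63.1, 61.7 and 57.1 CPM in wild-type and 7.95, 7.87 and 13.0 CPM in Eda-/-. The fall was 6.24-fold (log2 -2.64, SE 0.16), and none of its 31-base words is found in another gene. Esp3 (ENSMUSG00000093957, 40632075 to 40637060, plus strand) starts 33.5 kb farther along. It was at 50.5, 60.3 and 66.4 CPM in wild-type and 3.75, 3.28 and 5.61 CPM in Eda-/-, a 13.8-fold fall (log2 -3.79, SE 0.17). In both genes the groups were far apart compared with the spread inside each, and Eda-/- 3 was the highest of its group.

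Esp1 (ENSMUSG00000073396, 40727120 to 40731782, plus strand), the gene of the male tear pheromone, is the last gene of the cluster, beyond Esp3. Wild-type libraries gave it 419, 333 and 244 counts (26.1, 19.6 and 15.66 CPM), and Eda-/- libraries 3, 8 and 74 (0.262, 0.750 and 5.77 CPM). The groups did not overlap, but Eda-/- 3 had 22.0 times the CPM of Eda-/- 1. With that spread the gene did not pass (log2 -3.09, SE 0.80). Without Eda-/- 3 the log2 fold change was -5.33 (SE 0.46) and it passed, as it did with limma-voom (-4.07, SE 0.69), in a fit that was not robust, and with libraries scaled by their totals (-3.37, SE 0.79). Esp1 shares no 31-base word with other genes.

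Esp6 (ENSMUSG00000092043, 40561507 to 40565627, plus strand) starts 37.1 kb before Esp4 and did not follow it. Its levels were 4076, 4237 and 4325 CPM in wild-type and 5066, 5031 and 5174 CPM in Eda-/-. This 1.21-fold rise (log2 0.27, SE 0.08) was without overlap, but was -0.01 with libraries scaled by their totals, a setting under which the median of all tested genes was -0.28; relative to that median Esp6 was higher under both. It passed under 7 of 16 alternative settings and not under the others, among them upper-quartile scaling, a fit that was not robust, and leaving out wild-type 1, 2 or 3 or Eda-/- 2 or 3. Of its 663 exon bases 167 (25.2%) lie in exons of Gm44501, annotated on the same strand, and how the authors counted reads in both is not given in the sources used here. Gm44501 itself had 31 to 64 counts per library.

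Esp18, Esp16 and Esp15 sit side by side and are 3 of the 4 genes with the most abundant transcripts of the family. Esp18 (ENSMUSG00000094024, 39406359 to 39410992, plus strand) was at 4960, 4975 and 4930 CPM in wild-type and 3536, 4746 and 4535 CPM in Eda-/-, lower in every Eda-/- library (log2 -0.21, SE 0.10), without passing. Esp16 (ENSMUSG00000096345, 39536142 to 39540847, plus strand) overlapped between groups, as given above. Esp15 (ENSMUSG00000095104, 39640954 to 39645666, plus strand) was at 11815, 12021 and 11124 CPM in wild-type and 10505, 12773 and 12078 CPM in Eda-/- (log2 0.02, SE 0.09). In each of the 3 genes Eda-/- 1 was the lowest library. Esp15 shares 38.3% of its 31-base words with Esp16, so reads between those copies are uncertain, and Esp18 shares 25.0% of its words with AC192777.2. With libraries scaled by their totals, Esp18, Esp16 and Esp15 were at -0.50, -0.19 and -0.27, and the first and last passed as lower.

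Esp8 (ENSMUSG00000090747, 40520022 to 40530421, plus strand) was barely detected. Wild-type libraries gave it 1, 1 and 3 counts, and Eda-/- libraries 0, 3 and 2. The ratio of normalised counts was 1.39 with an exact binomial 95% interval of 0.320 to 6.04, which covers counting error only, so a difference was not detectable at this depth. Of its exon bases 12.4% overlap AC161605.4 on the opposite strand.

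**Figure D3:**
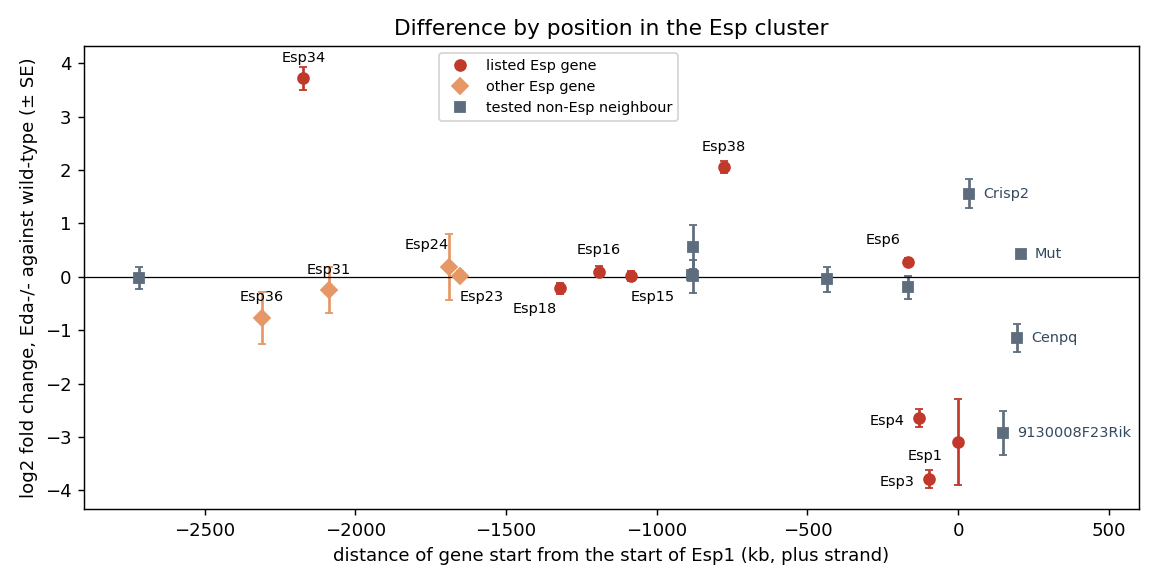
Log2 fold change (Eda-/- against wild-type, bars SE) against the distance of each gene's lower coordinate from that of Esp1 (kb), for the 9 tested listed Esp genes (red circles), other Esp genes (orange diamonds) and the tested non-Esp genes within 1 Mb of the cluster (grey squares; names for those that passed). Esp4, Esp3 and Esp1 lie together at -2.64, -3.79 and -3.09, with 9130008F23Rik beyond them at -2.93, while Esp34 at 3.72 and Esp38 at 2.05 stand apart among genes near 0.

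The unlisted family members with rows in the table did not pass in edgeR with TMM scaling. Esp31 was the most abundant of them, at 1715, 1596 and 1209 CPM in wild-type and 714, 1135 and 1960 CPM in Eda-/- (log2 -0.25, SE 0.44). Esp24 was at 252.5, 254.8 and 391 CPM in wild-type and 146, 261 and 607 CPM in Eda-/- (log2 0.18, SE 0.62). Both spread widely among the Eda-/- libraries, with Eda-/- 1 lowest and Eda-/- 3 highest. Without Eda-/- 3 their log2 fold changes were -0.70 and -0.55, and without Eda-/- 1 they were 0.04 and 0.54. Esp36 was at 318, 254.1 and 346 CPM in wild-type and 87.7, 284 and 168 CPM in Eda-/- (log2 -0.76, SE 0.49; -1.25 without Eda-/- 2 and -0.43 without Eda-/- 1). Esp23 was the steadiest, at 37.3, 39.1 and 33.8 CPM in wild-type and 37.5, 37.1 and 37.0 CPM in Eda-/- (log2 0.02, SE 0.08; -0.26 with libraries scaled by their totals, where it passed as lower). Thus Esp34, with a 13.1-fold gain, lies between Esp36 and Esp31, whose groups overlapped.

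The spread between libraries of a group was described as the SD of log2(CPM + 0.5). Over all tested genes its median was 0.123 in wild-type and 0.151 in Eda-/-. Among wild-type libraries Esp18 was steadiest, with 0.007, and Esp1 and Esp24 spread most, with 0.361 and 0.359. Among Eda-/- libraries the SD was 1.59 for Esp1, 1.03 for Esp24, 0.848 for Esp36 and 0.729 for Esp31. It was 0.394, 0.396 and 0.361 for Esp34, Esp4 and Esp3, and only 0.021 and 0.012 for Esp6 and Esp23. Wide spread in Eda-/- was thus seen in genes that passed and in genes that did not. Eda-/- 3 was the highest of its group for Esp31, Esp24, Esp6, Esp4, Esp3 and Esp1, and Eda-/- 2 for Esp36, Esp34, Esp18, Esp16, Esp15 and Esp38.

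**Figure D4:**
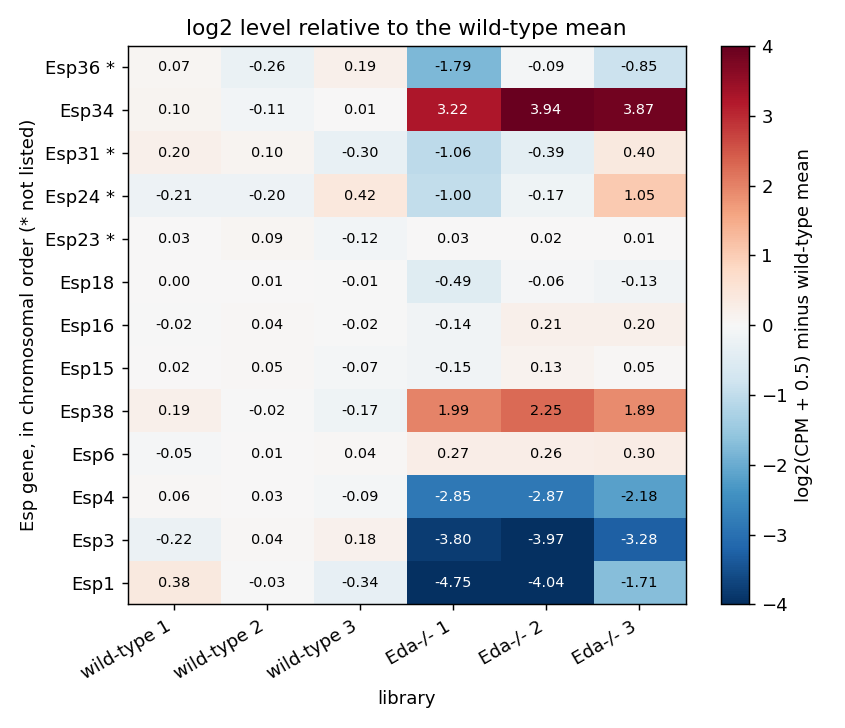
Log2(CPM + 0.5) of 13 Esp genes in each library relative to the wild-type mean of the gene, in order along the chromosome (printed value, and colour that saturates at 4 in either direction). Eda-/- 1 is at -1.06 for Esp31 where Eda-/- 3 is at 0.40, and Esp1 runs from -4.75 to -1.71 among the Eda-/- libraries.

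Around the cluster few genes were expressed. Of 70 non-Esp genes in the table within 1 Mb of it, 10 were tested. In Eda-/- 2 of them rose, where 6.21% of all tested genes did, and 2 fell, where 6.9% did (median log2 fold change -0.01). All 4 lie beyond Esp1, with starts 32.2 to 202.9 kb from its end, and their tests come from the edgeR fit with adjustment over all genes. Crisp2, which encodes a cysteine-rich secretory protein, had counts of 21, 29 and 14 in wild-type against 36, 52 and 47 in Eda-/- (log2 1.56, SE 0.27, edgeR adjusted p = 0.00129). 9130008F23Rik had counts of 31, 40 and 58 in wild-type against 3, 2 and 7 in Eda-/- (log2 -2.93, SE 0.42, edgeR adjusted p = 0.000225). The fall of Cenpq, a centromere protein gene, was 1.14 on the log2 scale (SE 0.27, edgeR adjusted p = 0.0107). Mut, which encodes the mitochondrial enzyme methylmalonyl-CoA mutase, rose by 0.42 (SE 0.07, edgeR adjusted p = 0.00123; not passing with libraries scaled by their totals, 0.14). Among tested genes, both directions thus occurred next beyond Esp1. The 6 tested genes inside or before the cluster did not pass (log2 -0.20 to 0.56), and in each of them the groups overlapped. Only Crisp1 and Gm44501 are annotated as protein-coding, at 2.05 and 3.48 CPM on average. Gm44501 shares exon bases with Esp6 and spans the promoter window of Esp5, so it counts as non-Esp by its symbol alone. Gm20541 is a pseudogene. Gm26917 and Gm42418, annotated as lincRNAs (4378 and 4760 CPM), and CT010467.1, annotated as ribosomal RNA (57.1 CPM), lie together between 39843013 and 39848827. Gm42418 lies wholly inside CT010467.1 on the opposite strand. Whether counts of these lincRNAs come from ribosomal RNA was not tested. These 6 therefore say little about ordinary genes inside the cluster.

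On the wider chromosome, 8 of 19 tested non-Esp genes (42.1%) passed in the 5 Mb window from 40 to 45 Mb, which holds Esp8, Esp6, Esp4, Esp3 and Esp1. In the window from 35 to 40 Mb, with the rest of the cluster, it was 11 of 60 (18.3%). The share was 18.6% of the 625 tested non-Esp genes of chromosome 17, against 13.1% of all tested genes. Windows away from the cluster also had high shares, 12 of 28 (42.9%) from 5 to 10 Mb and 32 of 101 (31.7%) from 30 to 35 Mb. Genes that passed with more than 2-fold change were 5 of 19 from 40 to 45 Mb and 6 of 60 from 35 to 40 Mb. They were 7 of 28 from 5 to 10 Mb, 17 of 101 from 30 to 35 Mb, 51 of 625 on the chromosome and 4.08% of all tested genes.

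The receptors for ESP peptides were hardly detected at this depth. Vmn2r116, the ESP1 receptor, had 1 count in wild-type 1, 1 in Eda-/- 1 and 0 in the other libraries. Vmn2r115, a close relative that detects ESP22, had 2 counts, in wild-type 3. The vomeronasal channel gene Trpc2 had 0 counts in every library. Of the 8 listed vomeronasal genes 2 were tested, the G protein subunit Gnao1 and the MHC light chain B2m. In edgeR 0 of them passed, where 13.1% of all tested genes did, and 0 had an unadjusted p under 0.05. In DESeq2 0 passed. With 2 genes tested these counts say little about the list.

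Genes of androgen action, listed because ESP1 depends on androgen, did not pass. Of 18 listed genes 9 were tested and 0 passed in edgeR, where 13.1% of all tested genes did (median log2 fold change 0.12). By unadjusted p under 0.05 edgeR gave 0 higher and 1 lower, and DESeq2 called 1 higher. Of the steroid 5-alpha-reductase genes, Srd5a1 and Srd5a2 had at most 6 counts in any library, and Srd5a3 had 47 to 96 (log2 -0.29, SE 0.16, not passing). Fkbp4, a chaperone of steroid receptors, was at 0.16 and Fkbp5 at 0.46 (log2).

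Most tested genes of other secreted chemical signals rose. Of 20 listed genes 12 were tested, and 0 of them were lower at an unadjusted p under 0.05 (median log2 fold change 0.46). In edgeR and in DESeq2 10 rose and 0 fell, where 6.21% of all tested genes were higher and 6.9% lower in edgeR. The 10 were Scgb1b27, Scgb2b27, Scgb2b24, Scgb1b20, Scgb2b20, Scgb1b2, Scgb2b2, Mup4, Mup5 and Mucl2. Mup5, a major urinary protein gene, changed most after Scgb1b27 (log2 5.11), with a log2 fold change of 3.71 (SE 0.34, edgeR adjusted p = 0.0054). With libraries scaled by their totals, Mup4, Scgb1b20, Scgb2b20, Scgb1b2 and Scgb2b2 did not pass. Single libraries also decided calls: Scgb2b20 lost its call on leaving out wild-type 1, 2 or 3 or Eda-/- 2 or 3, Scgb1b20 without wild-type 1 or 2 or Eda-/- 2 or 3, Mup4 without wild-type 1 or 3 or Eda-/- 3, and Scgb2b2 without wild-type 3. Scgb2b20 passed under 9 of 15 alternatives. The list was chosen with earlier results of these data known and is not independent evidence of its direction.

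Markers of cell types moved with genotype in part. The counts below stand beside 6.21% of all tested genes that were higher and 6.9% that were lower in edgeR. Of 5 macrophage markers 3 (Csf1r, C1qa and Tyrobp, log2 -1.01, -1.52 and -1.71) fell and 0 rose, with summed levels of 30.2 to 56.3 CPM in wild-type and 13.8 to 18.2 CPM in Eda-/-. None of them was higher at an unadjusted p under 0.05 or in DESeq2, and the same held for the myoepithelial markers. Of 4 tested myoepithelial markers 3 (Myh11, Cnn1 and Mylk, log2 -0.38, -0.57 and -0.71) fell and 0 rose (110 to 144 against 77.7 to 96.1 CPM). Of 6 tested acinar markers 1, Bhlha15, rose (log2 0.36, SE 0.08) and 0 fell in edgeR. Summed levels of this list were 2681 to 3193 against 3749.5 to 5062 CPM. Most of the gap was in Car6, at 1508 and 2643 CPM on average and not passing. Lyz2, at 41.7 and 13.5 CPM on average, was lower at an unadjusted p under 0.05 and in DESeq2. Its count was highest in wild-type 3 (991), as were the counts of the 5 macrophage markers, and it is not read as an acinar loss. Duct markers did not pass (0 of 5 in edgeR and in DESeq2, and 0 at an unadjusted p under 0.05; 373 to 407 against 337 to 404 CPM). Of 12 salivary gland genes 3 were tested and 1, the prolactin receptor gene Prlr, rose (126.5 to 137.6 against 148.9 to 157.2 CPM, most of it Egf). Of 7 sebaceous or Meibomian gland genes 4 were tested and 1, Mc5r, rose (360.4 to 374.5 against 349 to 379 CPM). Of these markers only Prlr was followed under the other scalings. With libraries scaled by their totals the median log2 fold change of all tested genes was -0.28. Small rises such as Bhlha15 and Mc5r (log2 0.55, SE 0.13) may therefore depend on the scaling. The part of these markers in the Esp differences was not tested.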

How the data were processed

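Lacrimal gland RNA of 3 wild-type and 3 Eda-/- mice was analysed from raw gene counts deposited by the authors. The submitters' processing notes name bcl2fastq, Trimmomatic, STAR, featureCounts, DESeq2 and the build GRCm38.p5, with no versions. Which annotation release, strand setting and filters they used, and how multiply mapped reads were counted, is not given in these sources.

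Of 50686 identifiers 50462 matched GENCODE M21, 45823 of them in the same version. Genes with enough counts (filterByExpr, minimum count 10) were scaled by TMM and tested with edgeR 4.0.16 (R 4.3.3), robust quasi-likelihood, two-sided, Benjamini-Hochberg adjusted over 13178 genes, threshold 0.05. DESeq2 1.42.0 and limma 3.58.1 (voom) were alternatives, with other scalings, filters, a replicate block and each library left out. On simulated counts (12959 genes tested, 100 changed by each fold) the edgeR script recovered 85.6% of 2-fold and 100% of 4-fold changes, and called 8 unchanged genes. Every simulated gene had the same dispersion, so these shares do not hold for genes that vary as widely as Esp1. The binomial interval given for Esp8 covers counting error only, while the standard errors of the edgeR fit also carry the spread between replicates. Replicates of a group differed by more than sampling noise (chi-square per degree of freedom 8.61 to 24.9).

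The members and gene lists were chosen with earlier results of these data known. Named genes were all members, other Esp genes with at least 10 counts, Eda, neighbours within 1 Mb that passed at 1 CPM or more (at most 4 in each direction), listed genes that passed, and up to 4 others of the highest level per list. Genes named outside that rule were chosen after their values were seen. They were the neighbours that did not pass (Gm44501 among them), genes sharing sequence, Vmn2r115, Vmn2r116, Trpc2, Srd5a1, Srd5a2, Prol1, Lacrt, Lyz2 and the salivary and Y-linked markers. A protein comparison was not run. 1 listed gene is not reported here.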

Additional observations from a re-analysis of the deposited data

How the results depend on the processing

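With libraries scaled by their totals, 246 genes were higher and 4365 lower (819 and 909 with TMM), 5 Esp members were lower and 1 neighbour gene was higher; Esp23 was then at -0.26, Esp15 at -0.27 and Esp6 at -0.009. Leaving out each library in turn gave 561 to 677 genes higher and 599 (without Eda-/- 3) to 834 lower, 2 to 3 members higher and 2 to 3 lower. Within 3 Mb of the cluster 4 neighbours were higher and 8 lower. The number of genes tested in that span is not given here. These counts therefore cannot be set beside the 13.1% of all tested genes that passed. The members' share was 3.02% in wild-type and 3.23% in Eda-/- on TMM-scaled library sizes. Esp34, Esp38, Esp4 and Esp3 passed under all 16 alternatives, Esp6 under 7 and Esp1 under 4. The genes were listed on this contrast, so these counts describe dependence on the processing and are not evidence of a difference. The same replicate numbers did not pair libraries (correlations -0.028, 0.021 and -0.106). With a replicate block 712 genes were higher and 896 lower, 2 members were higher and 2 lower, and Esp6 was at 0.27 without passing. Using the shortest transcript length of every gene, chosen after seeing the data, put Esp15 at 5627 and Esp34 at 34.4 TPM in wild-type, and Esp34 at 373 TPM in Eda-/-. The lengths of Esp15 (1171 bases) and Esp34 (1413 bases) themselves do not change, so these shifts come from the lengths of other genes in the scaling. Removing the 20 most abundant genes removed Esp15 and Esp16. The causes were not tested, and Esp8 is limited by depth.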
